A study of Mus musculus with 18 samples.

Results

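Activin and TGF-beta signalling was followed through 8 genes in mouse bone marrow-derived dendritic cells: Fst, Inhba, Tgfb1, Tgfbr1, Tgfbr2, Smad7, Skil and Tgfbi. They are 8 of the 12394 genes that the arrays measured with a probe set annotated to a single gene, and they own 16 of the 22690 probe sets. A probe set is the group of short probes that reads a transcript on an Affymetrix array. Where a gene had several, the brightest on average over the 18 arrays was taken and the others served as a check. The probe sets were thus chosen by their mean level, from 7.24 for Smad7 to 12.05 for Inhba, and the genes were listed with earlier results of these data known, so counts of genes in the list are descriptions. Of the 18 arrays, 6 came from wild type C57BL/6 cells, 6 from wild type cells labelled EGTA, and 6 from Cd14-/- cells on the C57BL/6 background. Within each condition, 1 array was unstimulated and the others had 2, 4, 6, 12 or 24 h of lipopolysaccharide (LPS), so no condition and time was replicated. All cells were grown from marrow of mice aged 6 to 8 weeks for 7 to 10 days with the supernatant of GM-CSF-secreting B16 cells, and were stated to be over 90% CD11c+. LPS was given at 1 µg/ml in both wild type conditions, and EGTA, a chelator of extracellular Ca2+, at 2 mM. No LPS dose was stated for the CD14-deficient cells. The unstimulated cells were harvested 24 h after plating, so only the 24 h LPS arrays match them in time since plating. The design names the EGTA and CD14-deficient conditions as the means of finding expression that depends on the Ca2+ flux after LPS, and the title names NFAT.

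Activins and TGF-beta are secreted dimers of a shared ligand superfamily. A dimer of the product of Inhba, the inhibin beta A chain, is activin A, which myeloid cells release after Toll-like receptor stimulation, and follistatin, the product of Fst, binds activin and keeps it from its receptors. TGF-beta 1, from Tgfb1, is stored in a latent form and once freed binds the type II receptor TGFBR2, which recruits the type I receptor TGFBR1, a kinase that phosphorylates SMAD2 and SMAD3. SMAD7 blocks the type I receptor and SnoN, the product of Skil, represses SMAD-driven transcription. Tgfbi encodes a secreted matrix protein that takes its name from its induction by TGF-beta. CD14 is the co-receptor that hands LPS to TLR4, and NFAT factors enter the nucleus when Ca2+-activated calcineurin removes their phosphates.

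The stretch of 250 bases before the start site is shown for Inhba, Tgfbr1 and Tgfbr2, the ligand chain and the receptors with the clearest LPS response or EGTA difference among members with an entry, because the study's title concerns a DNA-binding factor. The sequences are RefSeq's, in build GRCm38.p6. That table matched 5 of the 8 genes in 6 entries. Inhba lies at chr13:16011601-16011850 on the plus strand, Tgfbr1 at chr4:47352972-47353221 on the plus strand, and Tgfbr2 at chr9:116175364-116175613 on the minus strand. All are written 5′ to 3′ toward the start site, and capitals mark motif matches on either strand.
Inhba: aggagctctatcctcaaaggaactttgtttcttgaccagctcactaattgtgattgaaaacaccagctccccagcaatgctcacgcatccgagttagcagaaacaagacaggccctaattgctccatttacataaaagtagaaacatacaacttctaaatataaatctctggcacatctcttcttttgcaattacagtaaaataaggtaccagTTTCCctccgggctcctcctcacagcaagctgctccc
Tgfbr1: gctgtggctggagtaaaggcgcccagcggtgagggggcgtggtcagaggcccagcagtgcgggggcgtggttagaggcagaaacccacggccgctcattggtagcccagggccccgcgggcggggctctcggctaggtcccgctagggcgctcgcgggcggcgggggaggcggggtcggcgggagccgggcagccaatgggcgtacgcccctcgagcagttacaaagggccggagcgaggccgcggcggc
Tgfbr2: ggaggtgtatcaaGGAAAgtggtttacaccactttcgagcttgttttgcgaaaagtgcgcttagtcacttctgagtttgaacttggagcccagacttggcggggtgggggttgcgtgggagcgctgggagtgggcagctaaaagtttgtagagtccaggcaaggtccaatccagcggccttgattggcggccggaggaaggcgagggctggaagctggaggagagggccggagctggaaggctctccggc

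The motifs searched on both strands were the NFAT core GGAAA, AP-1 (TGACTCA or TGAGTCA), the CRE (TGACGTCA), the NF-kB form GGGNNTTCC and the Smad box (CAGACA or GTCTAGAC). None of these motifs overlapped another in the members' windows. Inhba held 1 NFAT core match, 37 bases before the start and read on the other strand as TTTCC. Tgfbr2 held 1, at 237 bases before the start. Neither window of Tgfb1 or Tgfbi, nor the Tgfbr1 window printed above, held a match to any of them. A second Tgfbr1 entry, at chr4:47385966-47386215, held 1 Smad box 203 bases before its start. Of 32851 promoters of the same length, 55.6% held the NFAT core, 4.46% AP-1, 1.55% the CRE, 4.98% the NF-kB form and 17.3% the Smad box, so an NFAT core match is common in windows of this size. A match is a run of letters, not a binding site.

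Levels are given on a log2 scale, as log2 of the intensity plus 16, quantile-normalised after the log was taken. On this scale the median gene of an array lay between 7.01 and 7.07. Folds are on the same scale and understate the change of dim genes. Levels of different genes come from different probe sets and are not set against each other. Condition differences were tested over the 5 LPS times and LPS changes over the 3 conditions, with limma across all tested genes and Benjamini-Hochberg adjustment, and a call is an adjusted p under 0.05. With 1 array per condition and time, the p-values reflect only how these arrays scatter, and part of that scatter may be technical. The Cd14 level was 8.21 ± 0.24 (SE) lower in the CD14-deficient than in the wild type LPS arrays (adjusted p = 1.85e-10), and the EGTA arrays differed from wild type by -0.28 (adjusted p = 0.488). Itgax, which encodes CD11c, was between 11.22 and 12.40 on all 18 arrays. The unstimulated EGTA array stood apart among dim probe sets, with 3311 of them under an intensity of 16 against 4635 to 5570 on the others, and its protocol text describes plating without naming EGTA. RNA integrity numbers were 8.8 and 8.7 on the EGTA arrays of 12 and 24 h and 9.3 to 10 elsewhere.

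LPS raised Inhba and Fst, lowered Tgfbr2, and was followed by lower Tgfbr1 in the arrays without EGTA. Of the 8 genes, 4 passed the test of the mean LPS change, 2 higher and 2 lower, where 62% of the 7056 genes tested passed, and the members' median change was 0.04 against -0.05 over all genes. Inhba, the activin A chain, stood at 9.73 in unstimulated wild type cells and at 12.25, 13.02, 13.14, 13.02 and 12.96 after 2, 4, 6, 12 and 24 h of LPS. In CD14-deficient cells Inhba went from 10.03 to 12.36, 12.75, 13.07, 12.88 and 12.53. With EGTA it went from 9.73 to 11.28, 12.03, 12.28, 12.11 and 11.72. Every LPS array was above every unstimulated array, the rise was largely in place by 4 h, and the 6 h array was the highest in each condition. The mean change was 2.66 ± 0.12 (SE), a 6.33-fold rise (adjusted p = 1.02e-10), a call at each of the 5 times.

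**Figure D1:**
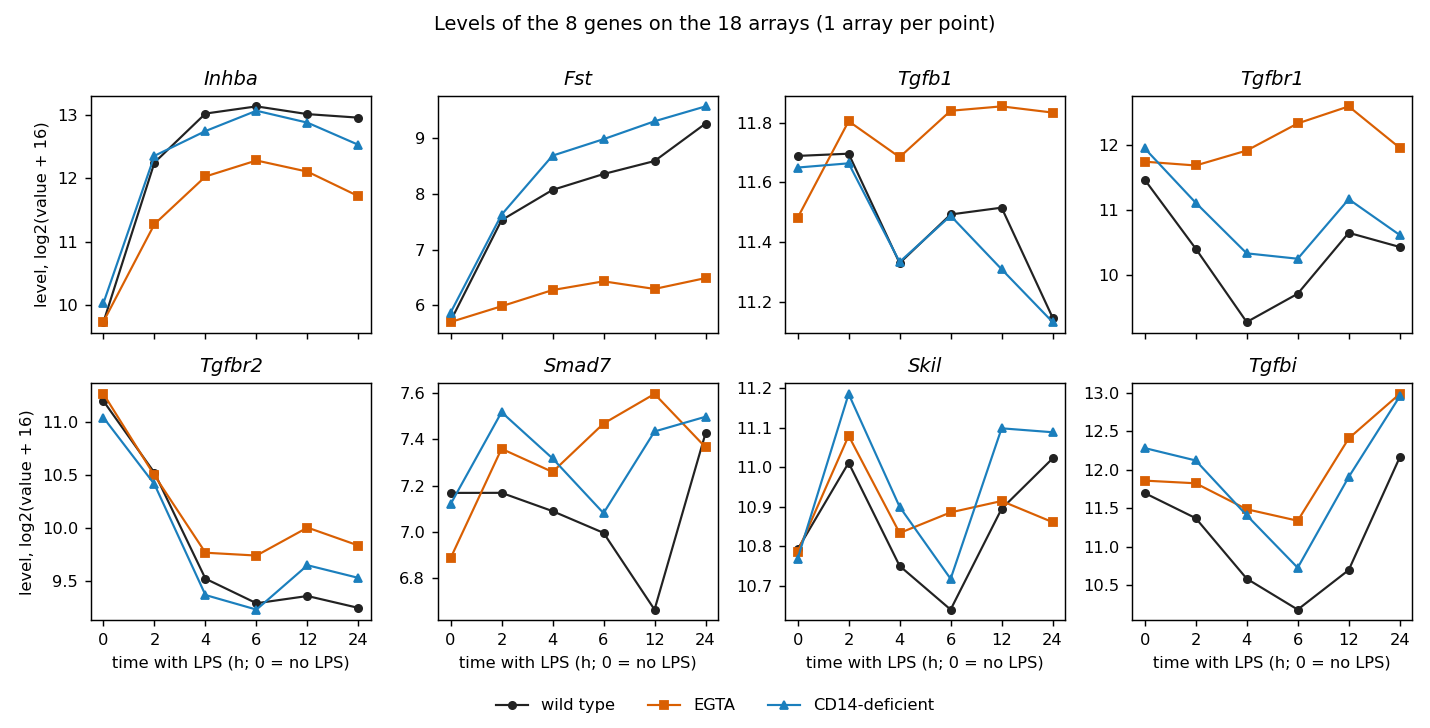
Level of each of the 8 genes by time in LPS. The horizontal axis is the time in hours, drawn as equally spaced categories and not to scale. The vertical axis is log2(intensity + 16) after quantile normalisation, and each point is 1 array, joined by condition. Fst climbed from 5.72 to 9.26 in wild type cells while its EGTA points stayed between 5.70 and 6.49, and Tgfbr1 dipped to 9.28 at 4 h in wild type cells while its LPS points with EGTA stayed at or above 11.68.

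Follistatin, the binder of activin, followed a slower course than its ligand. Fst stood at 5.72 in unstimulated wild type cells and at 7.53, 8.07, 8.36, 8.59 and 9.26 from 2 to 24 h of LPS. In CD14-deficient cells it went from 5.87 to 7.63, 8.69, 8.98, 9.31 and 9.57, and in cells with EGTA from 5.70 to 5.99, 6.28, 6.43, 6.30 and 6.49. In both conditions without EGTA each later array was higher than the one before, up to an 11.7-fold rise in wild type and a 13.0-fold rise in CD14-deficient cells at 24 h, the time that matches the unstimulated cells since plating, whereas with EGTA the rise at 24 h was 1.73-fold. The unstimulated levels of the 3 conditions lay within 0.17 of each other, and Fst was above its array's median on 10 of the 18 arrays only. As deposited, the unstimulated Fst intensities were 38.0 in wild type, 59.9 with EGTA and 53.9 in CD14-deficient cells. With EGTA the deposited intensity was 42.6 at 2 h and 70.8 at 24 h. The match of the unstimulated levels and the size of the rise with EGTA thus depend on the scaling. The mean LPS change over the conditions was 2.07 ± 0.32 (adjusted p = 4.29e-05), and without the EGTA arrays it was 2.81 ± 0.13 (adjusted p = 2.07e-07).

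Tgfb1, the TGF-beta 1 ligand, had no LPS change past the threshold over the 3 conditions, with a mean of -0.06 (adjusted p = 0.584) whose sign turned with median centring. In wild type cells it stood at 11.69 unstimulated and at 11.70, 11.33, 11.49, 11.52 and 11.15 with LPS. CD14-deficient cells gave 11.65, then 11.66, 11.33, 11.49, 11.31 and 11.13. With EGTA the LPS arrays were above the unstimulated one, from 11.48 to 11.81, 11.68, 11.84, 11.85 and 11.83. In the fit without the EGTA arrays the LPS change was -0.26 (adjusted p = 0.00516).

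Of the TGF-beta receptors, Tgfbr2 fell with LPS in each condition and Tgfbr1 in the conditions without EGTA. Tgfbr2, the ligand-binding receptor, went in wild type cells from 11.20 to 10.52, 9.52, 9.29, 9.36 and 9.25. In CD14-deficient cells Tgfbr2 went from 11.04 to 10.41, 9.37, 9.23, 9.65 and 9.53, and with EGTA from 11.26 to 10.50, 9.77, 9.74, 10.01 and 9.84. The fall was present at 2 h, was largest at 6 h in the mean over the conditions (at 24 h in wild type cells) and lasted to 24 h, and no LPS array reached an unstimulated one. Its mean was -1.43 ± 0.09 (adjusted p = 3.7e-09), a 2.70-fold fall and a call at every time, although the 2 h value (-0.69, adjusted p = 3.17e-04) was not one with median centring (-0.32, adjusted p = 0.141) or with the median of the probe sets (-0.60, adjusted p = 0.0783). A check probe set of Tgfbr2 fell by 1.39, while the other, which was above the array median on none of the 18 arrays, gave 0.11.

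Tgfbr1, the kinase receptor, fell and partly returned in the conditions without EGTA. Wild type cells went from 11.47 to 10.41, 9.28, 9.72, 10.65 and 10.44, and CD14-deficient cells from 11.95 to 11.11, 10.34, 10.26, 11.17 and 10.62. The lowest arrays were those of 4 and 6 h. With EGTA, Tgfbr1 stood at 11.74 and then at 11.68, 11.91, 12.33, 12.59 and 11.96, so that 4 of its 5 LPS arrays were above the unstimulated one. The mean LPS change over the 3 conditions was -0.75 ± 0.27 (adjusted p = 0.0222), and without the EGTA arrays -1.31 ± 0.13 (adjusted p = 2.62e-05). The call over the 3 conditions was lost with median centring (-0.45, adjusted p = 0.199), with the median of its probe sets (-0.42, adjusted p = 0.152) and without the unstimulated array of wild type (-0.45, adjusted p = 0.23) or of CD14-deficient cells (-0.51, adjusted p = 0.184). Its check probe sets changed by -0.23 and -0.45.

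The brakes moved little on the probe sets read, although the check probe set of Skil rose with LPS. Skil, which encodes SnoN, lay between 10.64 and 11.19 on all 18 arrays, with a median under LPS of 10.89 in wild type, 10.89 with EGTA and 11.09 in CD14-deficient cells. It was higher by 0.31 at 2 h (adjusted p = 0.00529) and by 0.21 at 24 h (adjusted p = 0.0351), in 3 of 3 conditions each, although without further scaling neither was a call (0.25 at 2 h, adjusted p = 0.13, and 0.00 at 24 h). The 24 h call was also lost without the 24 h array of wild type (0.16) or of CD14-deficient cells (0.18), or the unstimulated array with EGTA (0.22) or of CD14-deficient cells (0.17). The probe sets of Skil disagreed in size, since the check probe set gave a mean LPS change of 0.86 where the one read gave 0.14 (adjusted p = 0.0507). The check probe set was above the median on all 18 arrays and went from 7.72 to 9.08 at 2 h in wild type cells. The mean LPS change of Skil was a call with median centring, a pseudocount of 1 and the median of the probe sets. Over the 9 other settings it ran from 0.01 to 0.50 (adjusted p from 5.96e-07 to 0.929). Leaving out the wild type 6 h, EGTA 24 h or CD14-deficient 6 h array also made it a call. Smad7, the inhibitory SMAD, was close to the array median throughout, from 6.66 to 7.60, and had no LPS change past the threshold (0.23, adjusted p = 0.177), with values of 0.08 without the unstimulated EGTA array and 0.39 without the unstimulated wild type array. Without the wild type 12 h array it was a call (0.27, adjusted p = 0.0487), as it was without all wild type arrays (0.39, adjusted p = 0.0469).

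Tgfbi, the matrix protein target, dipped and then exceeded its starting level. In wild type cells it went from 11.70 to 11.37, 10.59, 10.19, 10.70 and 12.16, in CD14-deficient cells from 12.28 to 12.12, 11.41, 10.73, 11.91 and 12.95, and with EGTA from 11.86 to 11.83, 11.49, 11.34, 12.41 and 12.99. In each condition the 6 h array was the lowest and the 24 h array the highest. The change was -1.20 ± 0.20 at 6 h (adjusted p = 1.15e-04) and 0.75 ± 0.20 at 24 h (adjusted p = 0.00566), the latter not a call without further scaling (0.55, adjusted p = 0.0653). Its mean over the times, -0.34 (adjusted p = 0.0753), sets these opposite changes against each other.

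**Figure D2:**
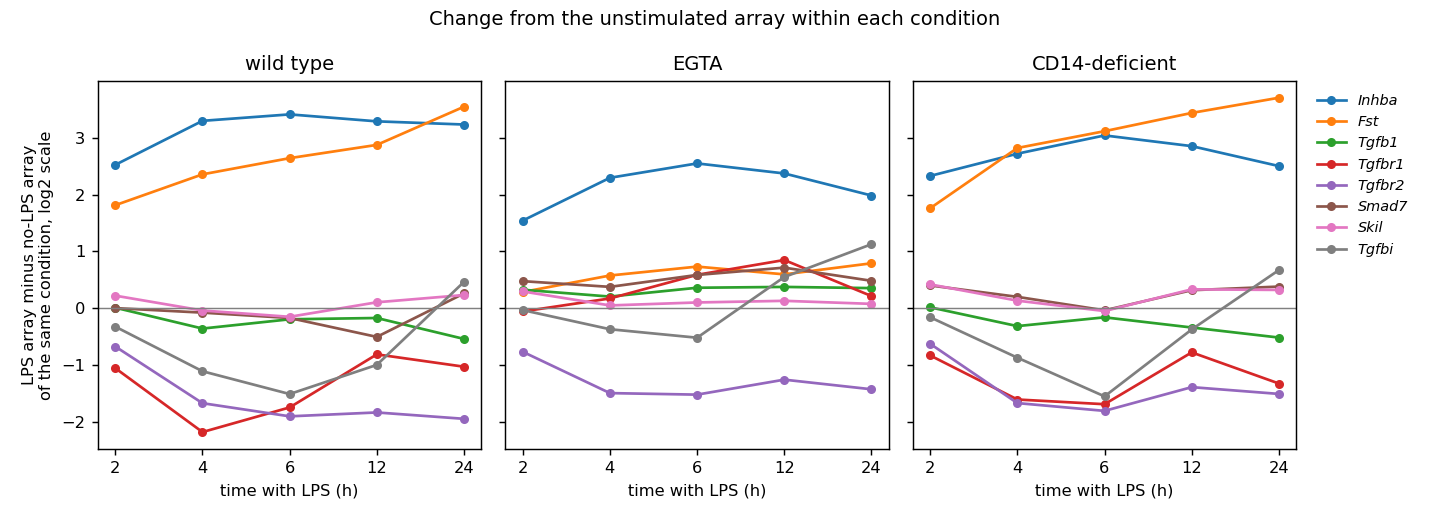
Change of each gene from the unstimulated array of its condition, by time in LPS. The horizontal axis is the time in hours as equally spaced categories, the vertical axis is the log2 difference, each point is 1 array, and the line at 0 is the unstimulated level. Inhba is above 0 and Tgfbr2 below 0 on every LPS array, and Tgfbi crosses from below 0 at 6 h to above 0 at 24 h in each condition.

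By time, 4 members passed at 2 h where 41.3% of all genes did, 5 at 4 h against 60.8%, 5 at 6 h against 60%, 3 at 12 h against 56.6% and 5 at 24 h against 52.2%. These shares are close to those of all genes, and they single out none of the members. Inhba, Fst and Tgfbr2 were called at all 5 times. The Fst call at 2 h (1.29, adjusted p = 0.0214) was lost without the 2 h array of wild type (1.26) or EGTA (1.15), without the unstimulated array of wild type (1.00) or CD14-deficient cells (0.84), with a pseudocount of 64 (0.86) and without further scaling (0.94), and without the unstimulated EGTA array the value was 2.02. The median of all genes under the mean LPS change was -0.05, 0.09 with median centring and -0.32 without further scaling, against which the changes of Inhba, Fst and Tgfbr2 are large under each.

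Late and early LPS arrays were compared directly as well, 24 h against 2 h, which leaves out the unstimulated arrays. Of the members, 5 differed, where 52.7% of all genes did. Tgfbi was higher at 24 h by 0.93 (adjusted p = 0.00137) and Tgfbr2 lower, at -0.94 (adjusted p = 1.28e-05), both in the same direction in 3 of 3 conditions. Fst was higher by 1.39 (adjusted p = 0.0102) and Inhba by 0.44 (adjusted p = 0.0307), also in 3 of 3, and Tgfb1 gave -0.35 (adjusted p = 0.0313), lower in 2 of 3. The Fst call was lost without the wild type 24 h array (1.16, adjusted p = 0.0559). The Inhba call was lost without the wild type array of 2 or 24 h (0.43 and 0.29) or the EGTA array of 2 h (0.35) and under both other scalings (0.19 and 0.25), and that of Tgfb1 without the wild type array of 2 or 24 h (-0.32 and -0.26) or the CD14-deficient one (-0.31 and -0.28).

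With EGTA under LPS, follistatin and the activin chain were lower than in wild type cells, and TGF-beta 1, both receptors and Tgfbi were higher. That is 6 of the 8 genes called, 4 higher and 2 lower, where 13.6% of the 6929 genes tested were called, and the members' median difference was 0.35 against 0.01 over all genes. Fst was lower by 1.55, 1.80, 1.93, 2.30 and 2.77 at 2, 4, 6, 12 and 24 h, a difference that went from 2.92-fold to 6.84-fold. The ranges under LPS, 5.99 to 6.49 with EGTA and 7.53 to 9.26 in wild type, were 1.04 apart. The mean difference was -2.07 ± 0.17, 4.19-fold (adjusted p = 2.01e-05). None of the 5 EGTA arrays was above its array's median for Fst, so the gene passed the filter on dim genes through the other conditions, and its fold is compressed by the pseudocount.

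Inhba was lower with EGTA by 0.97, 1.0, 0.86, 0.91 and 1.24 from 2 to 24 h. The mean difference was -0.995 ± 0.07, 1.99-fold (adjusted p = 1.06e-05), close to the same at each time, while the ranges over all LPS times overlapped by 0.03. The unstimulated arrays stood at 9.73 in both conditions. With EGTA, Inhba still rose 2.91-fold to 5.85-fold over its unstimulated level, against 5.75-fold to 10.6-fold in wild type cells.

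Tgfbr1 was higher with EGTA by 1.27, 2.63, 2.61, 1.94 and 1.52, between 2.42-fold and 6.19-fold, and by 0.28 in the unstimulated arrays. The LPS ranges, 11.68 to 12.59 against 9.28 to 10.65, lay 1.03 apart. The mean difference was 1.99 ± 0.18, 3.98-fold (adjusted p = 4.6e-05), and the check probe sets were higher by 1.44 and 1.63. Tgfbr2 was higher in 4 of 5 pairs, by 0.38 ± 0.09 (adjusted p = 0.0163), with values of -0.03, 0.24, 0.45, 0.64 and 0.59, and its dimmer check probe sets gave 0.10 and 0.04. The Tgfbr2 call was lost without the EGTA arrays of RNA integrity under 9 (0.30, adjusted p = 0.142), with the median of the probe sets (0.04, adjusted p = 0.926), without the arrays of 6, 12 or 24 h (0.36, 0.31 and 0.33), and without the wild type 12 h (0.32, adjusted p = 0.0598), EGTA 6 h (0.35, adjusted p = 0.0595) or EGTA 12 h array (0.34, adjusted p = 0.0584).

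Tgfb1 was higher with EGTA by 0.11, 0.36, 0.35, 0.34 and 0.69, a mean of 0.37 ± 0.07 (adjusted p = 0.00632), with the unstimulated difference at -0.21. Tgfbi was higher by 0.45, 0.90, 1.15, 1.71 and 0.82, a mean of 1.01 ± 0.14 or 2.01-fold (adjusted p = 6.42e-04), and its 3 check probe sets gave 0.89 to 1.05. Its ranges over the LPS times overlapped between the conditions by 0.82. Of the brakes, Smad7 gave 0.34 ± 0.13 (adjusted p = 0.1) and Skil 0.05 ± 0.06 (adjusted p = 0.633), and the check probe set of Skil gave -0.26. The EGTA calls of Fst, Inhba, Tgfb1, Tgfbr1 and Tgfbi stood under all 9 other settings tried, without any of the 15 LPS arrays and without any of the 5 times.

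**Figure D3:**
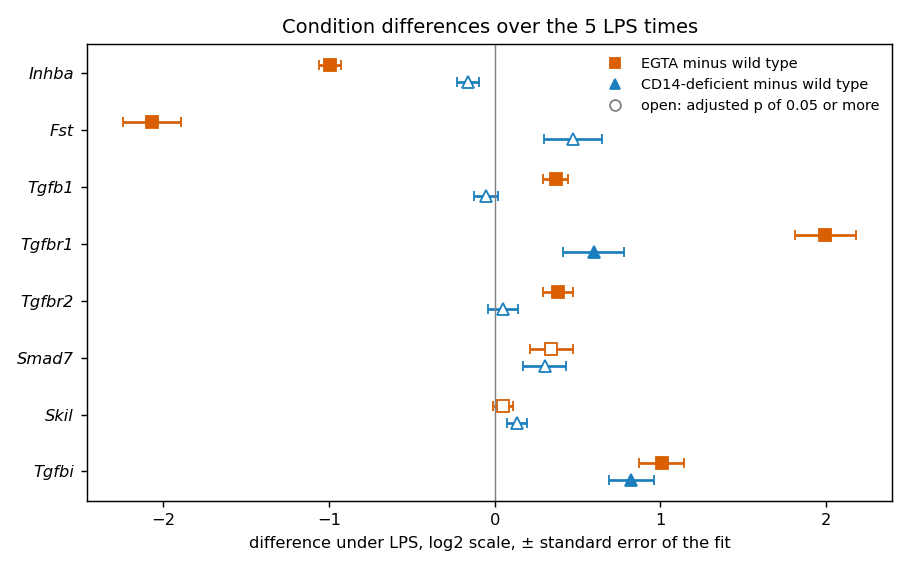
Difference of each gene from wild type under LPS. The vertical axis lists the genes and the horizontal axis is the log2 difference. Each point with its bar is the limma mean over the 5 times with its SE. Filled points are calls and open points are not. With EGTA, Fst at -2.07 and Tgfbr1 at 1.99 lie farthest from 0, while in CD14-deficient cells Fst is at 0.47, and the CD14-deficient values of Skil and Tgfbr2, which are near 0, change sign with the scaling.

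CD14-deficient cells under LPS had higher Tgfbi and Tgfbr1 than wild type cells, while the differences of follistatin and the activin chain lay near the threshold and passed it under some settings only. These are 2 of the 8 genes, where 29.7% of the genes tested were called, and the members' median was 0.22 against 0.04 over all genes. Tgfbi was higher by 0.75, 0.82, 0.54, 1.21 and 0.79, a mean of 0.82 ± 0.14 or 1.77-fold (adjusted p = 8.26e-04), with check probe sets at 0.70 to 0.79. The unstimulated arrays differed by 0.58 already. Tgfbr1 was higher by 0.70, 1.05, 0.54, 0.51 and 0.18, a mean of 0.60 ± 0.18 (adjusted p = 0.0271), with an unstimulated difference of 0.48. That call depended on the setting: it was lost with median centring (0.53, adjusted p = 0.0505), without further scaling (0.46, adjusted p = 0.114) and with the median of the probe sets (0.33, adjusted p = 0.144), over a range of adjusted p from 0.0271 to 0.144. It was lost too without the arrays of 4 or 12 h (0.48 and 0.62) and without 6 single arrays, the wild type ones of 4, 6 and 12 h and the CD14-deficient ones of 2, 4 and 12 h, with values from 0.46 to 0.71 over all arrays left out.

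Fst was above wild type at 5 of 5 times in CD14-deficient cells, by 0.47 ± 0.17, and did not pass (adjusted p = 0.0554). It was a call with a pseudocount of 1 (0.49, adjusted p = 0.049), without the EGTA arrays of RNA integrity under 9 (0.47, adjusted p = 0.0128) and without the arrays of 2 h (0.57, adjusted p = 0.0114) or 24 h (0.51, adjusted p = 0.0404). Of the single arrays, leaving out the wild type 24 h (0.58), the CD14-deficient 2 h (0.63) or the EGTA 2 or 24 h array (0.47 each) also made it a call. Inhba gave -0.16 ± 0.07 (adjusted p = 0.0898), below wild type at 4 of 5 times, which became a call with median centring (-0.21, adjusted p = 0.0344) and without further scaling (-0.27, adjusted p = 0.0392). The remaining values were -0.05 for Tgfb1 (adjusted p = 0.645), 0.05 for Tgfbr2 (adjusted p = 0.715), 0.30 for Smad7 (adjusted p = 0.0947) and 0.13 for Skil (adjusted p = 0.111).

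The direct comparison of CD14-deficient with EGTA-treated cells separated the conditions for 5 members, 2 higher and 3 lower, where 31.3% of all genes were called. Fst was 2.54 ± 0.17 higher in CD14-deficient cells, 5.82-fold (adjusted p = 4.88e-07), and Inhba 0.83 ± 0.07 higher (adjusted p = 2.29e-06). Tgfbr1 was lower, at -1.40 ± 0.18 (adjusted p = 1.42e-04), as were Tgfb1 at -0.42 (adjusted p = 0.0011) and Tgfbr2 at -0.33 (adjusted p = 0.0153). The Tgfbr2 call was lost without the EGTA arrays of RNA integrity under 9 (-0.25, adjusted p = 0.13), with the median of the probe sets (-0.48, adjusted p = 0.104), without the 4 or 6 h arrays (-0.31 and -0.29), and without the EGTA 6 h (-0.30), EGTA 12 h (-0.29) or CD14-deficient 6 h array (-0.29). Tgfbi, called higher than wild type in both conditions, gave -0.19 ± 0.14 between them (adjusted p = 0.328). The comparisons of each condition with wild type share the wild type arrays, so their values are given side by side only.

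Whether the LPS change itself differed from wild type was tested with the unstimulated arrays included. With EGTA, the LPS change of Fst was smaller, at a log2 difference of -2.05 ± 0.43 (adjusted p = 0.0342), and so was that of Inhba, at -1.0 ± 0.17 (adjusted p = 0.0133), 2 members where 1.66% of genes were called. The Fst call was lost with a pseudocount of 64 (-1.58, adjusted p = 0.0765), without the filter on dim genes (adjusted p = 0.055) and without 6 of 16 single arrays, the 4, 6 and 12 h arrays of wild type and of EGTA (-2.1 to -1.96). The Inhba call was lost without further scaling (-0.78, adjusted p = 0.171), and with median centring its value was -0.66. Tgfbr1 gave 1.72 ± 0.45 and did not pass (adjusted p = 0.0779), and the other 5 members did not pass. Each such value rests on a lone unstimulated array per condition, that of EGTA being the array that stood apart. For CD14-deficient cells none of the 8 was called, where 0.156% of genes were, 11 by limma and 603 at an unadjusted p under 0.05.

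Whether a condition difference changed between the early times (2, 4 and 6 h) and the late ones (12 and 24 h) was tested with the same tool. No member was called for EGTA, where 0% of genes were, 0 of 6929 by limma against 819 at an unadjusted p under 0.05, 2 with median centring and 14 without further scaling. No member was called for the CD14-deficient cells either, where 0.0433% of genes were. The Fst difference with EGTA, late minus early, was -0.78 ± 0.25 and did not pass (adjusted p = 0.244). For Tgfbr2 the late minus early value was 0.39 ± 0.14 (adjusted p = 0.296).

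Markers of other cells were measured on the same arrays. Summed over 9 macrophage markers on the array, the normalised signal under LPS ran from 28071 to 33530 in wild type cells, 28974 to 34346 with EGTA and 19377 to 29588 in CD14-deficient cells, with 3 of 9 higher with EGTA and 7 of 9 lower without CD14. The 10 dendritic cell markers summed to 36522 to 39993, 39046 to 44925 and 43461 to 48912, and of 9 tested 2 were higher with EGTA and 6 in CD14-deficient cells. Of 10 granulocyte markers, 1 was higher with EGTA, and 5 were higher and 1 lower in CD14-deficient cells, with sums of 8791 to 33292 in wild type, 10959 to 37288 with EGTA and 16220 to 34443 in CD14-deficient cells. Of 4 mast cell and basophil markers tested, 2 were lower with EGTA and 3 in CD14-deficient cells, with sums of 1150 to 2908, 1083 to 2487 and 769 to 1810. Of 3 endothelial markers tested, 1 was higher with EGTA and 2 lower in CD14-deficient cells, and of 3 platelet markers tested 1 was lower in CD14-deficient cells. Mitf, the 1 marker of B16 melanoma tested, was lower with EGTA, and no marker of T and NK cells, B cells or erythroid cells passed the filter. The 12 markers of fibroblasts and stroma summed to 402 to 693, 483 to 657 and 556 to 802. Such cells make follistatin and activin in many tissues. Of the 12, 8 were never above an array's median, and Col1a1 reached 5.59 and Col3a1 5.72 at most. Acta2 was above it on 16 arrays, Dcn on 3, and Lum and Pdgfrb on 1 each. Their highest levels were 8.74, 8.03, 7.42 and 7.65. Dcn went from 4.41 unstimulated to 8.03 at 24 h in wild type cells. It went from 4.68 to 6.15 with EGTA and from 6.03 to 7.51 in CD14-deficient cells. Neither of the 2 tested, Acta2 and Dcn, was called in either condition. Dcn differed from wild type under LPS by -0.28 with EGTA (adjusted p = 0.62) and by 0.86 in CD14-deficient cells (adjusted p = 0.0616). The macrophage, dendritic, granulocyte and mast cell lists had their larger numbers of called markers in the CD14-deficient condition. In that condition 29.7% of all genes tested were called, against 13.6% with EGTA. The part of any list in these results was not tested. In RNA from whole cultures, fewer cells that express a gene and less RNA per cell cannot be told apart.

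Other genes of the pathway, 133 in 5 lists, were read as a setting for the 8. Of these, 115 were on the array and 52 passed the filter over the LPS arrays. With EGTA, 2 were higher and 8 lower, with a median of -0.06, and in CD14-deficient cells 5 were higher and 7 lower, with a median of -0.01. That is 19.2% of the 52 with EGTA, where 13.6% of all genes were called, and 23.1% in CD14-deficient cells, where 29.7% were. These splits depend on the scaling: without further scaling they were 2 and 5 with EGTA and 1 and 8 in CD14-deficient cells. Median centring gave 2 and 8 with EGTA and 4 and 9 in CD14-deficient cells. Over LPS 24 of 55 rose and 17 fell, 74.5% against 62% of all genes, and centring on the median gave 27 and 12, no scaling beyond the deposited one 13 and 21.

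Among ligands, 1 of the 25 on the array passed the filter under LPS, and it was called in neither condition. Among receptors, 1 of 6 was called with EGTA, Acvr1b, the type I receptor for activin, at 0.36 ± 0.07 (adjusted p = 0.00374), but the median of its probe sets gave -0.07. In CD14-deficient cells 1 of 6 was called, Eng, the co-receptor endoglin, at -0.57 (adjusted p = 0.00541). With LPS, 4 receptors rose and 1 fell, Eng by 1.18, Acvr1b by 0.91 and Acvr1 by 0.53 against Acvrl1 at -0.58, and the Acvr1 call was lost without further scaling (0.14). The Eng value was 0.66 without the unstimulated EGTA array, in which Eng stood at 5.56 against 7.07 and 7.37 in the other unstimulated arrays, and the Acvr1b value was 0.47 with the median of its probe sets.

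Of 6 extracellular regulators, 4 were lower with EGTA: Fstl1, a follistatin-like protein, by -0.47 (adjusted p = 0.00123), Furin, the protease that cleaves the TGF-beta precursor, by -0.45 (adjusted p = 0.0065), and Itgav and Thbs1, whose products free TGF-beta from its latent form, by -0.50 (adjusted p = 0.00993) and -0.53 (adjusted p = 0.033). Without the EGTA arrays of low RNA integrity, 6 of the 52 other pathway genes were called in place of 10. Furin, Itgav, Thbs1, Tgif1 and Pmepa1 were not among them. The Thbs1 call stood without 7 of the 15 single arrays, with values from -0.59 to -0.35 without the 4, 6, 12 or 24 h array of wild type or EGTA. In CD14-deficient cells 3 were lower, Ltbp3 at -0.71 (adjusted p = 5.66e-05), Thbs1 at -0.68 (adjusted p = 0.00455) and Fstl1 at -0.25 (adjusted p = 0.0192), the last not a call without the wild type 12 h (-0.25) or the CD14-deficient 4, 12 or 24 h array (-0.24 to -0.22). Ltbp3 encodes a latent TGF-beta binding protein. These 3 genes were lower without LPS already. The unstimulated CD14-deficient and wild type arrays stood at 7.87 and 8.83 for Ltbp3, 11.84 and 12.16 for Thbs1, and 10.52 and 10.83 for Fstl1. With LPS, 4 of 6 regulators rose and 1 fell, among them Fstl1 by 1.05, Itgav by 1.15 and Dcn by 1.16. Dcn, which encodes decorin, is a stromal marker too, and its LPS call was lost without the wild type unstimulated array (0.94, adjusted p = 0.0542).

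Of 18 intracellular mediators and brakes, 2 were lower with EGTA, the corepressor Tgif1 at -0.33 (adjusted p = 0.0135) and Pmepa1 at -0.64 (adjusted p = 0.0497). The Tgif1 call was lost without further scaling (-0.25, adjusted p = 0.131), without the EGTA arrays of low RNA integrity and without the 6 or 12 h arrays. That of Pmepa1 was lost with the median of its probe sets (-0.38, adjusted p = 0.151), a pseudocount of 1, no filter and no trend. It was lost too without the EGTA arrays of low RNA integrity and without the 4, 6, 12 or 24 h arrays. The Pmepa1 call stood without 3 of the 15 single arrays only, with values from -0.85 to -0.53 over all arrays left out. In CD14-deficient cells 2 were higher and 2 lower, Strap at 0.26 and Fkbp1a at 0.21 against Usp15 at -0.36 and Tgif1 at -0.24. Strap was at 0.00 with the median of its probe sets, Fkbp1a lost its call with median centring (0.12), without further scaling (0.05) and without the wild type 4 or 12 h or the CD14-deficient 4 or 24 h array (0.17 to 0.21), and that of Tgif1 stood without 8 of the 15 single arrays. With LPS 8 rose and 5 fell, among them Tab2 at 0.51 and Tgif1 at 0.45 against Ski, the relative of SnoN, at -0.80 and Stub1 at -0.45. Under another scaling the Tgif1 (0.24) and Stub1 (-0.24) calls were lost.

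Of 21 target genes, 2 were lower and 1 higher with EGTA. Timp1, an inhibitor of matrix metalloproteinases, was lower, at -1.61 ± 0.12 (adjusted p = 1.29e-05), as was Tsc22d1 at -0.72 (adjusted p = 7.12e-04), and Ahr, the aryl hydrocarbon receptor, was higher by 0.53 (adjusted p = 0.00446). In CD14-deficient cells Timp1 at 0.51, Bhlhe40 at 0.41 and Ahr at 0.38 were higher and Tsc22d1 at -0.39 was lower. The unstimulated CD14-deficient and wild type arrays differed in the same directions. They stood at 7.40 and 6.40 for Timp1, 12.43 and 12.32 for Bhlhe40, 10.78 and 10.52 for Ahr, and 7.74 and 9.22 for Tsc22d1. The calls of Bhlhe40 and Ahr were lost without further scaling (0.24 and 0.25) and that of Ahr also without the 12 h arrays (0.36). Those of Timp1 and Tsc22d1 were lost without the 6 h arrays (0.42 and -0.33). With LPS 7 of 22 targets rose and 10 fell, and those of smallest p were Klf10 at -2.11, Itgae at -2.37, Id1 at -1.76 and Ahr at -1.07. Itgae encodes the integrin CD103, and Klf10 and Id1 encode early SMAD-responsive regulators of transcription.

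**Figure D4:**
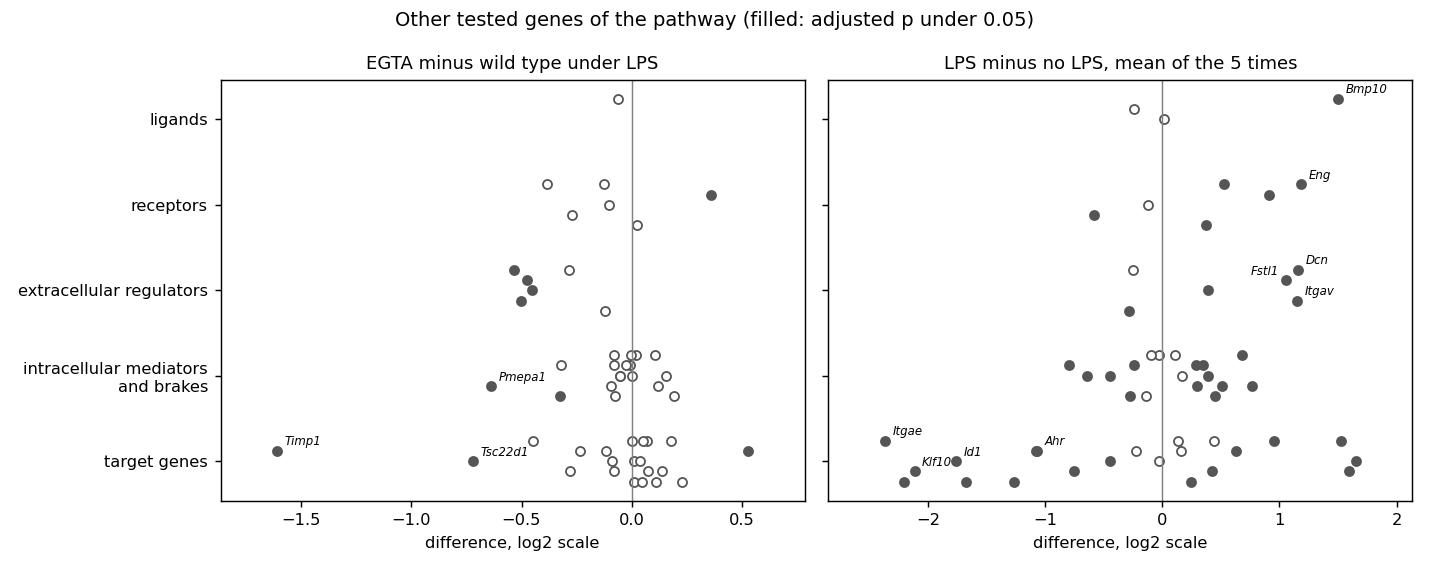
Differences of the other pathway genes that were tested, by gene list. The left panel is EGTA minus wild type under LPS, and the right panel is the mean LPS change. The vertical axis gives the lists, the horizontal axis is the log2 difference, and each point is 1 gene. Filled points have an adjusted p under 0.05. Among the labelled genes are Timp1 at -1.61 in the left panel and Klf10 at -2.11 and Itgae at -2.37 in the right panel.

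The genes closest in pattern to each member were found by Pearson's r over the 18 arrays among 7048 genes, as a description: the arrays share the LPS time course, so high values are common. Timp1 was closest to Fst (r = 0.94), followed by Apbb2 and Ift57 (0.92 each). Timp1 went from 6.40 to 8.63, 8.85, 8.68, 8.85 and 9.22 in wild type cells, from 7.40 to 9.29, 9.22, 9.53, 9.27 and 9.46 in CD14-deficient cells and from 6.67 to 7.37, 7.55, 7.15, 7.04 and 7.06 with EGTA. Its wild type level was thus near its top at 2 h, where Fst went on rising to 24 h. Its LPS change was smaller with EGTA than in wild type cells (log2 difference -1.88, adjusted p = 0.0122).

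The closest genes to Inhba were Tnfrsf1b, a receptor for TNF, at 0.97 and Itga5 and Eif6 at 0.96 each. Tgfbr2 was matched by Cd300a, Scel and Csgalnact2 at 0.97 each, Tgfbr1 by Spint1 and Eif2s2 at 0.91 each and Hsp90b1 at 0.89, and Tgfbi by Slc35b1 at 0.90 and Ctage5 and Calr at 0.88 each. Tgfb1 was matched by Cd244a at 0.83, Skil by Pdlim5 at 0.86 and Smad7 by Setd1a at 0.77. The closest matches of Smad7, Tgfb1 and Skil were thus looser than those of Inhba or Tgfbr2. Between members, r was 0.81 for Fst and Inhba, -0.92 for Inhba and Tgfbr2, -0.80 for Fst and Tgfb1 and 0.68 for Tgfb1 and Tgfbr1.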

How the data were processed

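Intensities of 22690 probe sets on 18 arrays were deposited by the authors on a linear scale, made with MAS5 per the submitters' processing notes, in a version not given in the sources used here. Probe sets annotated to 1 gene (20393) were kept, 691 with several genes and 1606 with none were left out, and each gene's highest-mean probe set was read. First log2(value + 16) was taken, and these values were then quantile-normalised. Genes above the array's gene median on at least 2 fitted arrays were tested (6929 over 15 LPS arrays, 7056 over 18). The fits used limma 3.58.1 (lmFit, eBayes with trend) in R 4.3.3, with time or condition as a block. Benjamini-Hochberg adjustment was made over all tested genes at 0.05. Figures used Python 3.11.15 and matplotlib 3.10.9. The scripts were tested on simulated data. The number of arrays, 1 per condition and time, limits the precision.

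Members and lists were chosen with earlier results of these data known. The named genes are the 8 members, Cd14, in each of the pathway lists up to 4 called genes per comparison by smallest p, and for each member the 3 genes of highest correlation. Genes singled out besides these (Itgax, Mitf, Acta2, Dcn, Pdgfrb, Lum, Col1a1 and Col3a1 as markers) come from the marker lists. Alternatives were other scalings, pseudocounts of 1 and 64, no filter, no trend, the median of a gene's probe sets, and fits without arrays, times or conditions.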

Additional observations from a re-analysis of the deposited data

Results flagged for a closer look

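For Fst and Inhba, the change with LPS differed between EGTA-treated and wild type cells in a test of that difference itself, a limma interaction over all 7056 tested genes with Benjamini-Hochberg adjustment. The value was -2.05 for Fst (adjusted p = 0.0342) and -1.0 for Inhba (adjusted p = 0.0133), both meaning a smaller rise with EGTA. The rise was smaller at 5 of 5 LPS times for each gene. These times share 1 unstimulated array per condition, so they are not separate checks. Among all genes 1.66% were called in this test. The Fst call was lost with a pseudocount of 64 (adjusted p = 0.0765), with no filter on dim genes (adjusted p = 0.055) and without 6 of 16 single arrays, the 4, 6 and 12 h arrays of wild type and EGTA, and that of Inhba without further scaling (adjusted p = 0.171). Fst passed the filter through the arrays without EGTA, where it is high, and each value rests on a lone unstimulated array per condition.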

How the results depend on the processing

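With median centring, Tgfbr2 in CD14-deficient minus wild type cells was -0.03, Skil in CD14-deficient minus EGTA cells -0.01 and the mean LPS change of Tgfb1 0.25, and 5 members were called for the EGTA difference in LPS change, where 10.8% of all genes were called in place of 1.66% and the median of all genes was 0.33. Without further scaling, CD14-deficient minus wild type was -0.03 for Skil and -0.09 for Tgfbr2, CD14-deficient minus EGTA was -0.15 for Skil, the mean LPS change of Smad7 was -0.19, Skil at 24 h was 0.00, and 2 members were called at 2 h (47.6% of all genes), 3 at 24 h (49.9%) and 1 for the EGTA difference in LPS change (0.411%), which was also 1 with a pseudocount of 64 (1.05%) and with no filter (0.726%). With no filter 3 were called between 24 and 2 h (30.4%). With the median of the probe sets, EGTA minus wild type was -0.07 for Acvr1b and -0.11 for Skil, Tgfbr2 in CD14-deficient minus wild type cells was -0.44, the EGTA differences in LPS change were -0.10 for Skil and -0.02 for Tgfbr2, and 1 member was called in CD14-deficient minus wild type cells (27% of all genes). Without the unstimulated EGTA array 5 were called at 12 h (54.5%). The cause of these shifts was not tested.

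Leaving out arrays, times or conditions, members called ranged from 1 to 4 in CD14-deficient minus wild type cells (20.1% to 31.1% of all genes), 2 to 5 between 24 and 2 h (36.9% to 56.1%), 1 to 3 for the EGTA difference in LPS change (0.753% to 2.17%), 3 to 6 at 12 h (44.2% to 56.9%) and 2 to 5 at 2 h (24.1% to 41.7%). Values ranged from -0.11 to 0.05 for Smad7 in CD14-deficient minus EGTA cells, -0.01 to 0.12 for Tgfbr2 in CD14-deficient minus wild type cells, 0.00 to 0.10 for Skil in EGTA minus wild type cells and -0.26 to 0.03 for the mean LPS change of Tgfb1. Of the single-gene values under the other settings, 880 kept direction and call, 53 lost the call, 12 gained it and 13 turned sign. With samples left out these were 2018, 125, 20 and 13. The EGTA contrast of late and early times without the arrays of low RNA integrity, and the differences in LPS change without the unstimulated EGTA or wild type array, could not be fitted. All genes called with EGTA numbered 943, and 456 without the EGTA arrays of low RNA integrity. Signal limits Fst, which was not above the array median on any EGTA array, and Smad7, which stayed near it.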
